A study of Glycine max with 6 samples.

Results

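Isoflavonoid synthesis enzymes of soybean (Glycine max) were followed through 8 genes. They encode both isoflavone synthases (IFS1, Glyma07g32330, and IFS2, Glyma13g24200), the chalcone synthases CHS7 (Glyma01g43880) and CHS8 (Glyma11g01350), and 4 genes listed as chalcone isomerases, CHI1A (Glyma20g38560), CHI1B1 (Glyma20g38570), CHI1B2 (Glyma10g43850) and Glyma06g14820. The genes were chosen by identifier for their roles, with earlier results of these data known. All 8 were found among the 66184 probe sets of the array, each gene with a probe set of its own. Total RNA came from the 3rd trifoliate leaf of cultivar Williams 82 plants in full bloom (R2). The drought group was 3 plants, numbered 11, 12 and 13, from which water was withheld for 5 days once flowering began (R1). Their soil moisture was 5% when leaves were collected. The well-watered group was 3 plants, numbered 1, 3 and 4, of that cultivar and stage that kept their water supply. A pot held 3 plants. Whether each treatment filled a single pot is not given, so that effects of pot and treatment may be impossible to tell apart, and the p-values below measure the spread between plants. Each plant gave 1 array (Affymetrix Soybean Gene 1.0 ST).

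In legumes, isoflavonoid synthesis branches off the general flavonoid pathway. Chalcone synthase joins p-coumaroyl-CoA with malonyl-CoA units to give a chalcone, chalcone isomerase closes the ring to a flavanone, and isoflavone synthase, a cytochrome P450 of the CYP93C subfamily, moves the aryl ring of that flavanone and so commits it to isoflavones such as genistein and daidzein. In soybean these compounds are known as signals to nodulating rhizobia, as seed constituents and as precursors of the glyceollin phytoalexins.

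The symbols were checked against the RefSeq gene table of assembly Glycine_max_v4.0. That table carries none of the 8 identifiers, so only the chromosome in each identifier could be compared with the chromosome of the gene of the same symbol. They were the same for 7 of the 8 genes. The exception was Glyma06g14820, which had been listed as CHI2. RefSeq has no gene with the symbol CHI2. Among genes with a chalcone isomerase, chalcone synthase or isoflavone synthase symbol, CHI2 stands as a synonym on chromosome 20 only. There it is a synonym of CHI1B1, itself among the 8 genes, and of CHI2-A. The single chalcone isomerase symbol found on chromosome 6 was CHI4A, and genes without such a symbol were not searched. Glyma06g14820 is therefore given by its identifier here. Isoflavone synthase names have been used crosswise, since RefSeq lists IFS2 among the synonyms of the IFS1 gene and IFS1 among those of the IFS2 gene, and in this text IFS1 is the gene on chromosome 7 and IFS2 the gene on chromosome 13. The RefSeq table holds 2 isoflavone synthase, 17 chalcone synthase and 10 chalcone isomerase symbols, so that the 8 genes cover both isoflavone synthases and part of the other families.

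Each value is log2 expression relative to the median of the same probe set over the 6 arrays. A value of 1 thus stands for a signal 2-fold above that median, and the middle values of a gene mirror each other around 0. Levels cannot be compared between genes on this scale, and leaf marker genes could not be used to check the tissue. Over all probe sets, 67.3% of the variance lay on a principal component that set drought arrays apart from well-watered ones. The correlation between arrays of one group, taken over probe sets and thus not over independent replicates, was 0.431 to 0.639. Within groups, well-watered plants 1 and 3 were the least alike. Between arrays of different groups it was -0.695 to -0.584. Centring removes the differences in level between probe sets, so these values cannot be set beside correlations of uncentred arrays. It also draws correlations between the groups below 0, so their negative sign is not a result by itself.

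Drought-stressed leaves had higher expression of 3 of the 8 genes and lower expression of 1, while 4 were not called. Calls required a 2-fold or larger change with an adjusted p below 0.05 (limma, Benjamini-Hochberg adjustment for 66184 probe sets), a rule that called 9.61% of all probe sets, 4.98% as higher and 4.63% as lower. By role, both isoflavone synthase genes were called, but in opposite directions. The chalcone synthase genes CHS7 and CHS8 were called higher, and none of the 4 genes listed as chalcone isomerases was called. The median log2 difference of the 8 genes was 0.27, against 0.02 for all probe sets, and the median of the absolute differences was 0.71 against 0.26. The 2 groups of values did not overlap in 5 of the 8 genes, against 36.0% of all probe sets. Drought samples were above in 4 of these genes, against 18.6% of all probe sets, and below in 1, against 17.4%. Because the genes were chosen with earlier results of these data known, these shares and medians are a description and not a test.

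**Figure D1:**
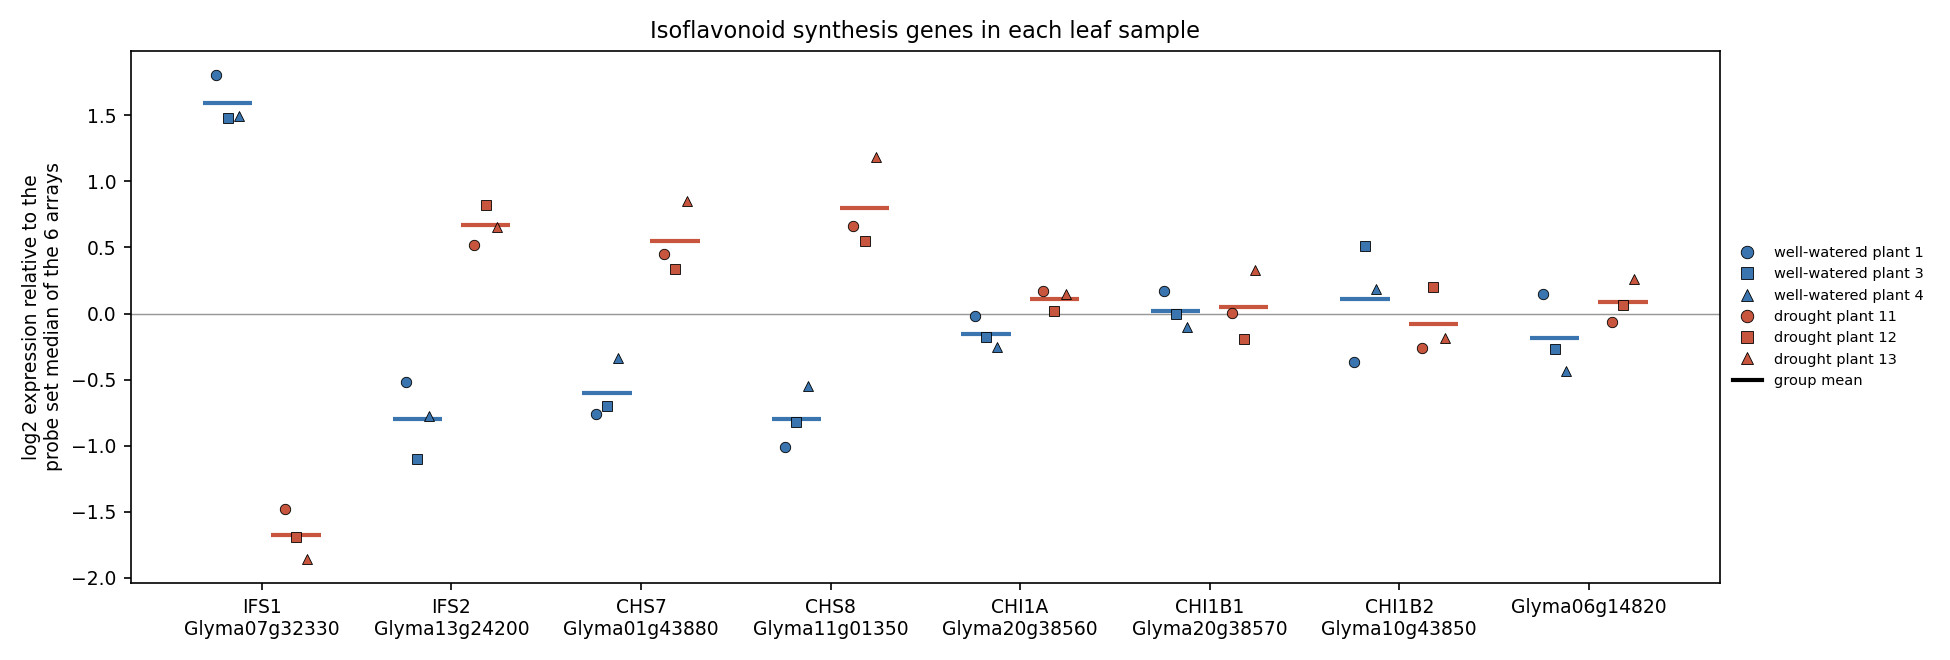
Log2 expression relative to the probe set median (y axis) of the 8 genes (x axis) in each of the 3 well-watered (blue) and 3 drought (red) leaf samples, with bars at the group means. IFS1 falls from a mean of 1.59 to -1.68, IFS2, CHS7 and CHS8 stand higher in every drought sample than in any well-watered sample, and the 4 genes on the right stay within 0.51 of 0 in all samples.

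IFS1 had the largest change of the 8 genes. Its values were 1.81, 1.48 and 1.50 in well-watered plants 1, 3 and 4, and -1.48, -1.69 and -1.86 in drought plants 11, 12 and 13. All drought samples lay far below all well-watered samples, and the gap between the groups exceeded the range within either. The group means were 1.59 ± 0.18 and -1.68 ± 0.19 (SD, n = 3 per group). IFS1 thus fell by 3.27 ± 0.18 on the log2 scale (SE, adjusted p = 3.65e-06, limma), or 9.66-fold with a 95% confidence interval from 7.32 to 12.7. Only 74 of all probe sets, IFS1 included, fell by as much or more. In bulk leaf RNA, fewer cells that express a gene and less RNA per cell cannot be told apart.

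IFS2 moved the other way. Its values were -0.52, -1.10 and -0.78 in well-watered plants 1, 3 and 4, and 0.52, 0.83 and 0.66 in drought plants 11, 12 and 13. The groups did not overlap, and well-watered plant 3 was the lowest sample. The means were -0.80 ± 0.29 and 0.67 ± 0.15 (SD, n = 3 per group), so that IFS2 rose by 1.47 ± 0.19 on the log2 scale (SE, adjusted p = 0.000501, limma), or 2.76-fold with a 95% confidence interval from 2.05 to 3.72.

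Within each array the value of IFS2 minus that of IFS1 was -2.33, -2.58 and -2.27 in well-watered plants 1, 3 and 4, and 2.00, 2.52 and 2.52 in drought plants 11, 12 and 13. The ratio of the probe set signals therefore shifted towards IFS2 in each drought sample. The shift of the group means was 4.74 ± 0.20 on the log2 scale (SE, 3 arrays per group), which is 26.7-fold, with a 95% confidence interval from 4.19 to 5.28. The exact two-sided permutation test gave p = 0.1, the smallest value that 3 arrays against 3 allow, and 0.25 after adjustment over the 5 gene pairs compared, so no pair could pass the threshold. Because the signal of each probe set is centred, these values do not tell which of the isoflavone synthase genes was the more abundant, nor whether their summed transcript rose or fell. Isoflavone synthase copies are known to be close in sequence, and how far the probes of one also bind transcripts of the other was not tested.

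**Figure D2:**
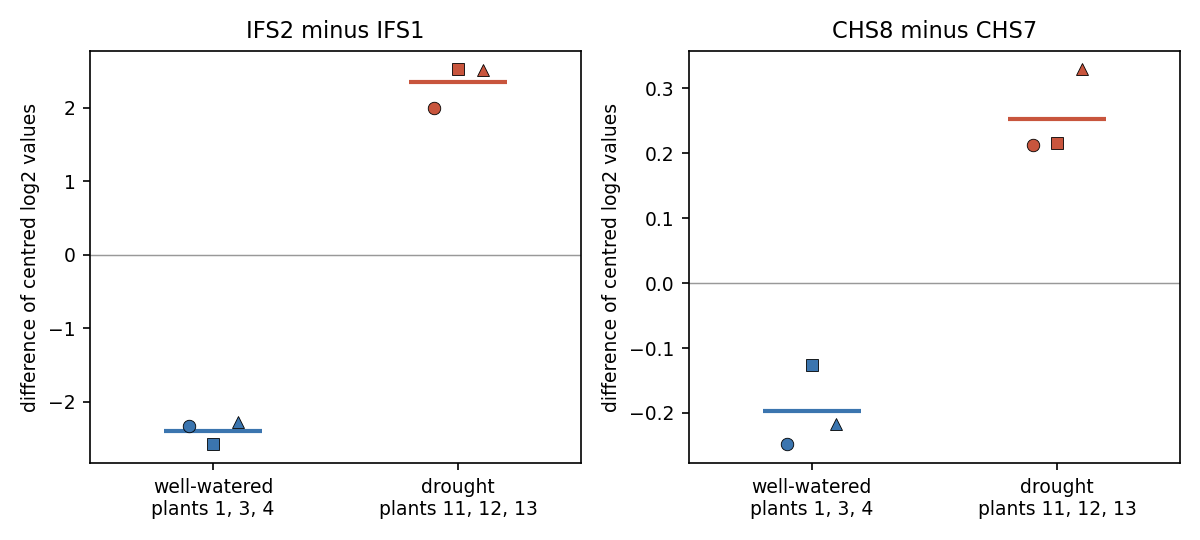
Difference between the centred log2 values of IFS2 and IFS1 (left, y axis) and of CHS8 and CHS7 (right, y axis, with a finer scale) within each array, for 3 well-watered (blue) and 3 drought (red) plants in the order named under the axis, with bars at the group means. The mean moves from -2.39 to 2.34 for the isoflavone synthases and from -0.20 to 0.25 for the chalcone synthases.

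CHS7 and CHS8, whose enzymes act at the first step that is particular to flavonoids, rose together. CHS8 stood at -1.01, -0.82 and -0.55 in well-watered plants 1, 3 and 4, and at 0.66, 0.55 and 1.18 in drought plants 11, 12 and 13. CHS7 stood at -0.76, -0.70 and -0.33 in the same well-watered plants and at 0.45, 0.33 and 0.85 in the drought plants. Neither gene had overlapping groups, and in both genes drought plant 13 was the highest and well-watered plant 1 the lowest sample.

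CHS8 rose by 1.59 ± 0.21 (log2, SE, n = 3 per group, adjusted p = 0.000548, limma), or 3.02-fold with a 95% confidence interval from 2.17 to 4.19. CHS7 rose by 1.14 ± 0.20 (adjusted p = 0.00261), or 2.21-fold with an interval from 1.62 to 3.01. In the methods' t-test the adjusted p was 0.0459 for CHS7, just under the threshold, and 0.032 for CHS8. The call of CHS7 rested on drought plant 13 for the fold criterion, since without that plant its log2 difference was 0.99 with an adjusted p of 0.0141, and with array weights it was 0.93. The value of CHS8 minus that of CHS7 was -0.25, -0.13 and -0.22 in well-watered plants 1, 3 and 4, and 0.21, 0.22 and 0.33 in drought plants 11, 12 and 13. The group mean of CHS8 thus rose further than that of CHS7 by 0.45 ± 0.05 on the log2 scale (SE, 95% confidence interval from 0.30 to 0.60). This SE and interval come from the spread of the within-array difference and not from the limma fit. The exact two-sided permutation test gave p = 0.1, again the smallest it can give, and 0.25 after adjustment over the 5 pairs, so it could not decide.

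The profiles of CHS7 and CHS8 over the 6 arrays were nearly the same, with a Pearson correlation of 0.996 (n = 6 arrays in 2 treatment groups). CHS8 ranked 8th of 66183 other probe sets in likeness to CHS7, and CHS7 ranked 23rd in likeness to CHS8. Their samples had the same order within each treatment. Chalcone synthase copies are also known to be close in sequence, and a shared binding of probes was not tested for this pair either.

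None of the 4 genes listed as chalcone isomerases was called, and none passed the adjusted p alone, which 19.9% of all probe sets did, although with array weights Glyma06g14820 did so at a log2 difference of 0.45 (adjusted p = 0.0498). CHI1A belongs to the legume type of the enzyme. Its values were -0.02, -0.18 and -0.26 in well-watered plants 1, 3 and 4, and 0.17, 0.02 and 0.14 in drought plants 11, 12 and 13. The groups did not overlap, but the difference of 0.26 ± 0.16 on the log2 scale (SE, 3 arrays per group, adjusted p = 0.317, limma) was small, with a 95% confidence interval from -0.09 to 0.62. The adjusted p of CHI1A was lower in the methods' t-test, at 0.138, and in limma with array weights, at 0.0699.

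CHI1B1, which lies beside CHI1A on chromosome 20, had values of 0.17, -0.01 and -0.10 in well-watered plants 1, 3 and 4, and of 0.01, -0.20 and 0.33 in drought plants 11, 12 and 13. CHI1B2 had -0.37, 0.51 and 0.18 in the well-watered plants and -0.26, 0.20 and -0.18 in the drought plants. Glyma06g14820 had 0.15, -0.27 and -0.43 in the well-watered plants and -0.06, 0.06 and 0.26 in the drought plants. The groups overlapped in each of these 3 genes.

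The log2 difference was 0.03 ± 0.19 for CHI1B1 (SE, n = 3 per group, adjusted p = 0.953, limma), with a 95% confidence interval from -0.39 to 0.44. It was -0.19 ± 0.24 for CHI1B2 (adjusted p = 0.68), with an interval from -0.72 to 0.34, and 0.27 ± 0.20 for Glyma06g14820 (adjusted p = 0.413), with an interval from -0.17 to 0.71. All 4 intervals of the limma fit include no change and lie within a 2-fold change in either direction, so a smaller change could not be told from none in that fit. The signs of the CHI1B1 and CHI1B2 differences turned when single arrays were left out, and the difference of Glyma06g14820 was 0.15 without well-watered plant 4 and 0.44 without well-watered plant 1.

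The responses of these 4 genes were also compared in pairs within arrays. The response of CHI1B1 minus that of CHI1A was -0.24 ± 0.13 on the log2 scale (SE, 3 arrays per group, 95% confidence interval from -0.59 to 0.12, exact two-sided permutation p = 0.3). For CHI1B2 minus CHI1B1 it was -0.22 ± 0.42 (interval from -1.38 to 0.95, exact permutation p = 0.8), and for Glyma06g14820 minus CHI1A it was 0.0082 ± 0.15 (interval from -0.41 to 0.42, exact permutation p = 1). After adjustment over the 5 pairs these values were 0.5, 1 and 1. With single arrays left out, CHI1B1 minus CHI1A reached -0.36 without drought plant 13, and CHI1B2 minus CHI1B1 ran from -0.53 without well-watered plant 1 to -0.0014 without well-watered plant 3. The wide interval of the CHI1B2 pair leaves room for a 2-fold difference in response, while the other intervals do not.

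**Figure D3:**
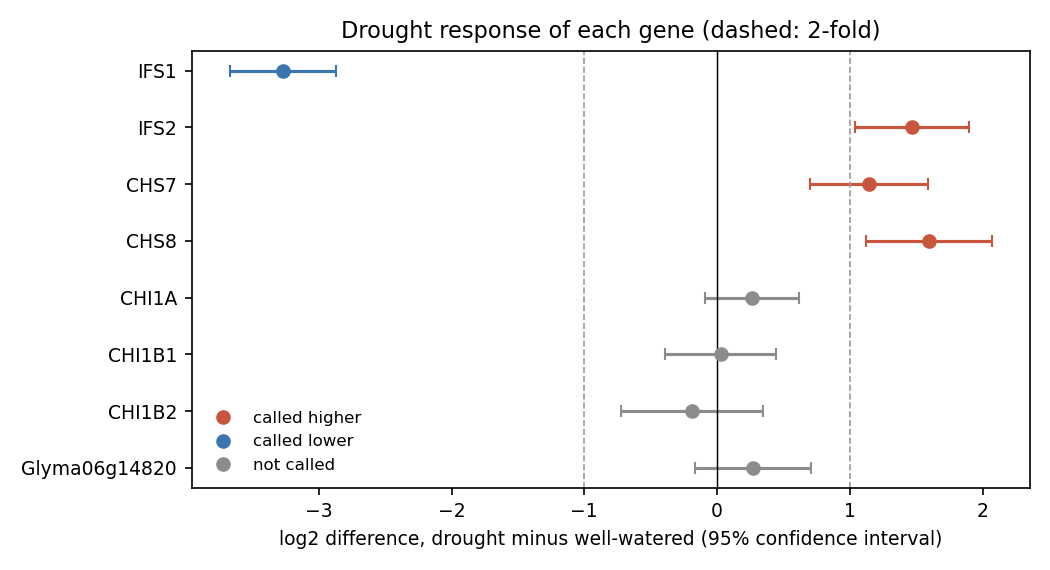
Log2 difference between drought and well-watered leaves (x axis) of each of the 8 genes (y axis), with its 95% confidence interval from the moderated fit over 3 arrays per group and dashed lines at a 2-fold change. The intervals of IFS1, IFS2 and CHS8 lie wholly beyond 2-fold, that of CHS7 runs from 0.70 to 1.59, and those of the 4 lower genes include 0.

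The 8 genes were placed among all probe sets by the size of their differences. The rises of CHS8, IFS2 and CHS7 were matched or exceeded by 1395, 1661 and 2674 probe sets, or 2.11%, 2.51% and 4.04% of the array. A fall as large as that of IFS1 was shared by 0.112%. The differences of the genes that were not called lay in the middle of the distribution, and 48.0% to 94.1% of all probe sets had a larger absolute difference than each of them.

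**Figure D4:**
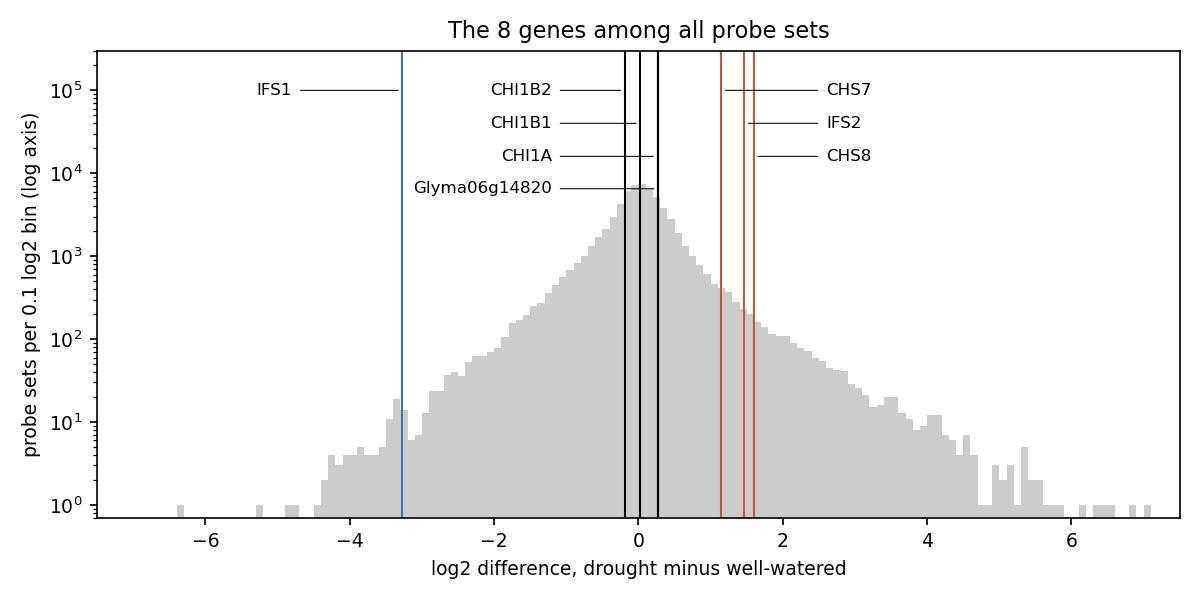
Number of probe sets in each bin of 0.1 of the log2 difference between drought and well-watered leaves (x axis; y axis on a log scale), with vertical lines at the 8 genes, red for those called higher, blue for the one called lower and black for those not called. IFS1, at -3.27, lies in the thin left tail, and CHS7, IFS2 and CHS8 lie on the right flank between 1.14 and 1.59.

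The genes most like each isoflavone synthase were sought by the Pearson correlation over the 6 arrays, as a description. For IFS1 it was Glyma02g35630 (r = 0.999), with a log2 difference of -3.04, and for IFS2 it was Glyma18g04410 (r = 1.00), with a log2 difference of 1.27. Neither identifier has a gene name in the tables used here. These are the highest values among all probe sets. The 6 arrays form 2 treatment groups, and 5691 other probe sets had a correlation of at least 0.9 with IFS1 and 5122 with IFS2. The correlation of IFS2 was 0.910 with CHS8 and 0.898 with CHS7, which ranked only 4645th and 5187th among the other probe sets.

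The genes with the nearest identifiers on either side of the 8 genes were 14 in number. Of these, 14.3% were called, 1 in each direction, near the 9.61% of all probe sets, and those named here were picked after their values were seen. The neighbours of IFS1 had log2 differences of -0.41 and 0.0042, and neither was called. Beside IFS2, Glyma13g24210 rose by 2.51 ± 0.25 (log2, SE, n = 3 per group), more than IFS2 itself, while the gene on the other side had a difference of -0.15. No neighbour of CHS7 or CHS8 was called. Beside Glyma06g14820, Glyma06g14830 fell by 1.56 ± 0.20. Both are without a gene name here.

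On chromosome 20, Glyma20g38580 follows CHI1B1. In RefSeq the gene order there is CHI1A, CHI1B1 and CHI2-A, but the identifier and the symbol CHI2-A are not paired in any table used here. This gene was singled out after its values were seen. They were -0.36, -0.63 and -0.01 in well-watered plants 1, 3 and 4, and 0.01, 0.26 and 0.59 in drought plants 11, 12 and 13. The groups did not overlap, and the log2 difference was 0.62 ± 0.22 (SE, adjusted p = 0.0717, limma), which did not pass the threshold.

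Gene descriptions used here covered part of chromosome 1, so other flavonoid genes are described for that stretch only. There 9 array genes carried a description of a flavonoid enzyme or, for 1 gene, of an enzyme family acting before that pathway. CHS7, also on chromosome 1 and called higher, is not among them. For short, all 9 are called flavonoid genes here. Of them 8 were not called, and the 1 that acts before the pathway was lower. The share called, 11.1%, was near the 9.61% of all probe sets. Their median log2 difference was 0.34, against 0.02 for all probe sets. Before the flavonoid pathway, Glyma01g01350 belongs to the family of 4-coumarate-CoA ligase, which makes the CoA ester used by chalcone synthase. It stood at 0.53, 0.76 and 0.66 in well-watered plants 1, 3 and 4, and at -0.53, -0.88 and -1.05 in drought plants 11, 12 and 13. The groups did not overlap, and it fell by 1.47 ± 0.18 (log2, SE, n = 3 per group, adjusted p = 0.000366, limma). Its description gives the family, not the activity of this member.

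The chalcone synthase gene Glyma01g22880 did not share the rise of CHS7 and CHS8 past the threshold. Its values were -0.02, 0.19 and -0.55 in well-watered plants 1, 3 and 4, and -0.01, 0.01 and 1.04 in drought plants 11, 12 and 13. Drought plant 13, also the highest sample of CHS7 and CHS8, stood apart, and the log2 difference of 0.47 ± 0.30 (SE, adjusted p = 0.341, limma) was 0.13 without it. With array weights it was 0.76 and passed the adjusted p (0.0439) but not the 2-fold criterion. The difference between its response and those of CHS7 and CHS8 was not tested. Glyma01g13900, of the chalcone and stilbene synthase family, had a log2 difference of 0.45 ± 0.24, which was 0.20 without well-watered plant 1 and 0.13 with array weights.

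Flavanone 3-hydroxylase competes with isoflavone synthase for the flavanone naringenin and leads to flavonols and anthocyanins. Its gene Glyma01g37120 had a log2 difference of 0.34 ± 0.24 (SE, n = 3 per group, adjusted p = 0.418, limma) and was not called, with well-watered plant 1, at -0.75, the lowest sample. Without that plant the difference was 0.08.

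Isoflavone reductase acts after isoflavone synthase, on the way to pterocarpans such as the glyceollins. Glyma01g37810, described as similar to alfalfa isoflavone reductase, had a log2 difference of -0.05 ± 0.19 (SE, adjusted p = 0.915, limma). Among its relatives Glyma01g37820 stood at -0.13, -0.28 and -0.77 in well-watered plants 1, 3 and 4, and at 0.13, 0.43 and 0.92 in drought plants 11, 12 and 13. Its groups did not overlap, and its log2 difference of 0.88 ± 0.24 had an adjusted p of 0.0277 but stayed under the 2-fold criterion. Glyma01g37850 was alike, with a difference of 0.80 ± 0.24 (adjusted p = 0.0415). Neither result was stable. Both were called without drought plant 11, at 1.07 and 1.01, and Glyma01g37820 also without well-watered plant 1, at 1.02, and with array weights, at 1.15. Both missed the adjusted p without well-watered plant 3 or 4 or drought plant 12, without drought plant 13, where the differences were 0.67 and 0.54, and in the methods' t-test after adjustment (limma adjusted p from 0.0531 to 0.114 and from 0.0651 to 0.148 without these plants). Glyma01g37850 also missed it without well-watered plant 1. Glyma01g24750 and Glyma01g37840 had differences of 0.05 ± 0.25 and -0.07 ± 0.19 and were not called.

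**Figure D5:**
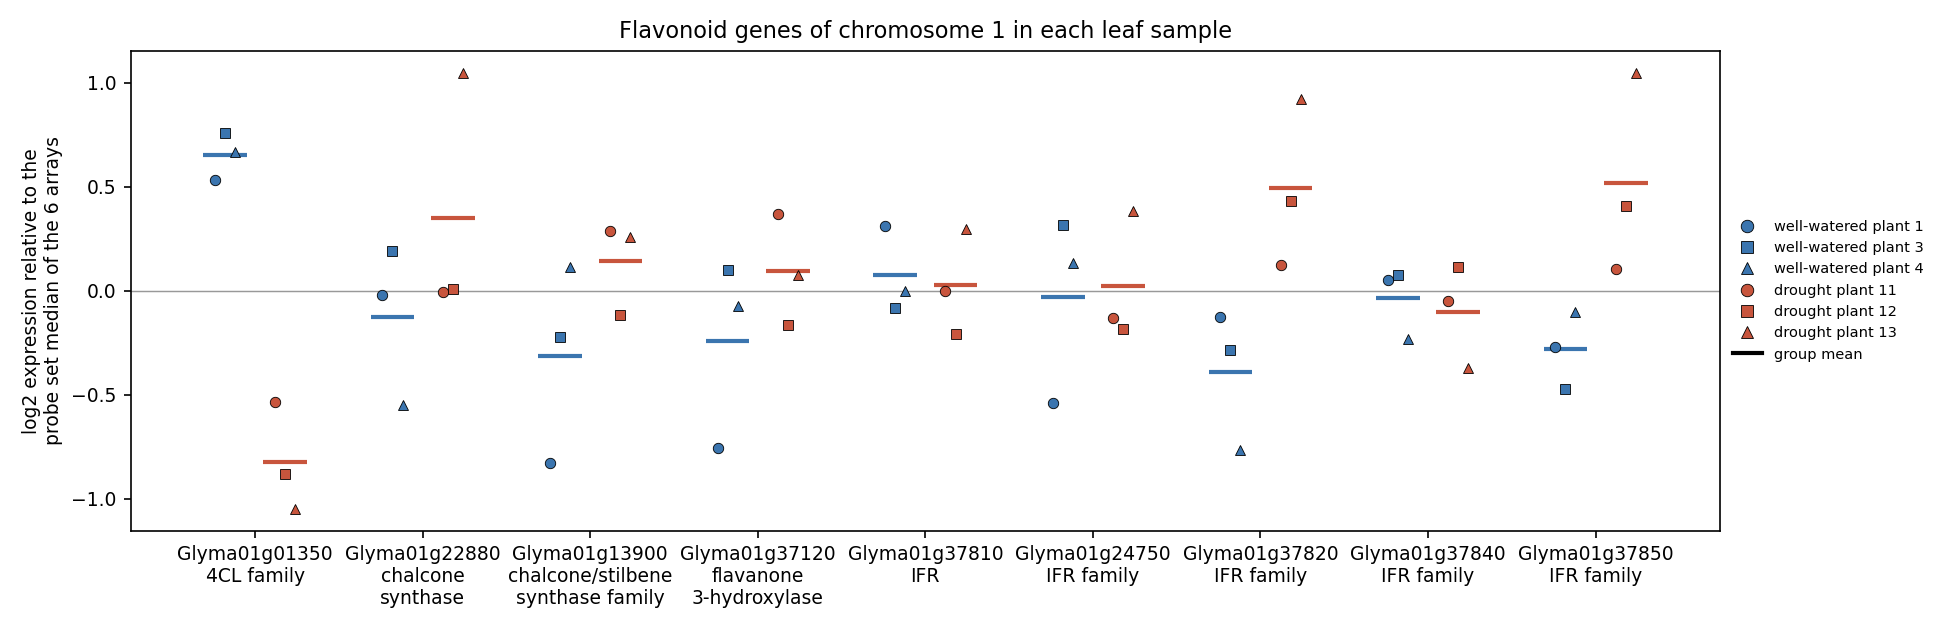
Log2 expression relative to the probe set median (y axis) of the 9 flavonoid genes described on part of chromosome 1, CHS7 not included (x axis). Points are well-watered (blue) and drought (red) leaf samples, with bars at the group means. 4CL is 4-coumarate-CoA ligase and IFR is isoflavone reductase. The 4CL family gene is lower in every drought sample than in any well-watered sample, with means of 0.65 and -0.82, and it is the only gene of the 9 that was called.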

How the data were processed

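RNA of 6 leaf samples had been hybridised to 1 array each. The deposited log2 values were made by the authors with gene-level RMA in Affymetrix Expression Console without normalization, followed by a shift of each array to its 75th percentile in GeneSpring. Each probe set of the deposited table is also centred on its median over the 6 arrays (largest absolute median 5e-07, read from the values). Absolute signal is thereby lost, so signal over background is unknown and the number of arrays limits the precision. A second table by the authors pairs probe sets with identifiers of the Glyma1 annotation, and only this pairing was used. Its deposited fold changes (a fall written as a negative ratio, no fixed scale), p-values and corrected p-values were not used.

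Values were used as deposited, groups were taken from the labels, and drought was compared with well-watered leaves in limma 3.58.1 with R 4.3.3 (lmFit, then eBayes, with only treatment in the model). SEs and 95% confidence intervals of genes are those of this fit. Differences between genes were taken within arrays, with an SE and a 95% interval from the pooled spread of the groups, and tested by exact permutation. The fit was also run on simulated data with 200 changed genes. That simulation had independent normal noise and no centring, so nothing about the present results is concluded from it. Named genes were all 8 genes, the 9 flavonoid genes described for chromosome 1 and the probe set most like each isoflavone synthase. Glyma13g24210, Glyma06g14830 and Glyma20g38580 were named besides, after their values were seen. These genes, lists and tests were chosen with earlier results of these data known. No other probe set had values identical to those of any of the 8 genes. No gene sequence was used. Alternatives were leaving out each array, median and quantile scaling, the methods' t-test, array weights and dropping the fold criterion.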

Additional observations from a re-analysis of the deposited data

How the results depend on the processing

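Over 11 alternatives the 8 genes gave 88 values, of which 83 kept their direction and their side of the threshold, 2 lost the call and 3 changed sign. The methods' t-test and dropping the fold criterion leave the log2 differences unchanged, so neither could change a sign. Dropping the criterion also could not remove a call. The calls of IFS1 (log2 difference from -3.55 to -3.17), IFS2 (from 1.32 to 1.61) and CHS8 (from 1.40 to 1.72) were kept under all 11. Their adjusted p was highest in the methods' t-test, at 0.00792, 0.0254 and 0.032. CHS7 lost its call with array weights, at 0.93, and without drought plant 13, its range being 0.99 to 1.28 when each array was left out in turn, with 2 to 3 of the 8 genes called higher. In the same leave-one-out fits CHI1B1 ranged from -0.12 to 0.15, CHI1B2 from -0.43 to 0.011, Glyma01g37810 from -0.18 to 0.073, Glyma01g24750 from -0.20 to 0.22, Glyma01g37840 from -0.18 to 0.066, and the response of Glyma06g14820 (listed as CHI2) minus that of CHI1A from -0.065 to 0.11. With quantile normalization that last difference was -0.0068. With array weights Glyma01g24750 stood at -0.074 and Glyma01g37840 at 0.096. Of the 9 chromosome 1 flavonoid genes described above, the number called higher was 0 to 2 in the leave-one-out fits, 1 with array weights and 2 without the fold criterion. Over all probe sets 6589 were higher and 6583 lower without the fold criterion, against 3295 and 3065 with it, and the methods' t-test called 2041 lower. The cause of these changes was not tested. A filter on dim probe sets was not run, because the centred values hold no absolute signal. No paired analysis was possible because plants were numbered 1, 3 and 4 in one group and 11, 12 and 13 in the other.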
